A study of Mus musculus with 8 samples.

Results

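The CXC chemokine system of PyMt mammary tumors was described through 10 genes chosen by their symbols, 9 ligands (Cxcl1, Cxcl2, Cxcl5, Cxcl9, Cxcl10, Cxcl12, Cxcl13, Cxcl14 and Cxcl16) and the receptor Cxcr4. They are 10 of the 55414 gene identifiers counted, and all 10 were among the 14458 genes that passed the filter on low counts and were tested. RNA was sequenced from 8 tumors, 4 from mice treated with calcipotriol, a vitamin D analog, and 4 from mice treated with its EtOH solvent. All mice were WT female C57BL/6 animals of 6 to 8 weeks, which received PyMt cells, a line derived from a tumor of an MMTV-PyMt transgenic mouse (the virus promoter drives the oncogene in mammary epithelium), orthotopically in the inguinal mammary fat pad. In the calcipotriol group 20 nmol was applied topically over the tumor every 2 days, starting on day 2 after implantation, and the EtOH group received EtOH on the same schedule. Tumors of both groups were harvested 24 hours after the last treatment. The EtOH tumors carry the replicate numbers 1, 2, 3 and 4 and the calcipotriol tumors the numbers 1, 5, 6 and 7, and all 8 tumors come from 1 cell line.

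Chemokines are small secreted proteins that guide leukocytes along concentration gradients through G protein-coupled receptors, and the CXC family is named for a residue that separates its first pair of cysteines. Ligands of CXCR2 (Cxcl1, Cxcl2 and Cxcl5) attract neutrophils, the interferon-inducible ligands of CXCR3 (Cxcl9 and Cxcl10) attract activated T cells and NK cells, and Cxcl13 attracts B cells through CXCR5. Cxcl12, made by stromal cells, signals through CXCR4, a receptor carried by many leukocytes, by tumor cells and by growing endothelium. Cxcl16 is a membrane-bound ligand of CXCR6, and Cxcl14 is a chemokine of epithelium and fibroblasts whose receptor is less settled.

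The libraries held 19685419 to 25084713 counts, so that 3 counts corresponded to 0.119 to 0.146 CPM, the counts scaled to library size. Some libraries stood apart from others of their group. Across the 14458 tested genes, which are not independent replicates, Spearman's rho was 0.984 between EtOH tumors 1 and 2 and 0.986 between EtOH tumors 3 and 4, but 0.957 to 0.964 across these pairs. Among the calcipotriol tumors rho was 0.975 to 0.988 between tumors 5, 6 and 7, and 0.957 to 0.966 between tumor 1 and each of them. Between calcipotriol tumor 1 and the EtOH tumors rho was 0.95 to 0.965, a range that overlaps the latter. Cyp24a1, a vitamin D target gene whose enzyme degrades active vitamin D, was at 0 counts in the 4 EtOH tumors and at 0, 130, 36 and 52 counts in calcipotriol tumors 1, 5, 6 and 7. By this gene the library labelled calcipotriol 1 could not be told from the EtOH tumors, and other genes placed it either way. Its summed erythroid genes were 820 CPM, against 434 to 609 in the other treated tumors and 3460 to 5840 in EtOH tumors, and Kdr, a VEGF receptor gene of endothelium, was at 4.29 CPM, against 3.65 to 4.96 and 12.7 to 15.7. By contrast Cdh5, the VE-cadherin gene, was at 56.6 CPM in it, within the EtOH range of 42.7 to 121, and the tip cell gene Apln at 47.5 CPM, within 41.2 to 57.4. Group means include it, and each member's fold change is also given without it or without a pair of EtOH tumors where that matters. The labels name epithelial cells, while the RNA came from whole tumors. Of the epithelial markers Krt8 was the most abundant, and Epcam was at 0 counts in EtOH tumors 1 and 2. In bulk RNA of this kind, fewer cells of a type and less RNA per cell cannot be told apart.

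Cxcr4 was the only member past the test. It fell in calcipotriol-treated tumors, although this call was lost with limma-voom and in 5 of the 8 fits that left out 1 tumor. Cxcl1, Cxcl2, Cxcl5, Cxcl9, Cxcl10, Cxcl13 and Cxcl14 had positive log2 fold changes that did not pass, of which Cxcl2 and Cxcl10 turned negative in a fit without 1 tumor (-0.02 without EtOH tumor 1 and -0.21 without calcipotriol tumor 1). A gene was called where the Benjamini-Hochberg adjusted p over all tested genes, from edgeR's quasi-likelihood test, was under 0.05 and the absolute log2 fold change (calcipotriol over EtOH) was at least 1. Of the 10 members, 0 were called higher, against 1.07% of all tested genes, and 1 was called lower, against 0.948%. At an unadjusted p under 0.05 the count was 4 of 10, against 18.4% of all tested genes. The log2 fold change was positive for 7 members and negative for 3, with a median of 0.92, and the median over all tested genes was 0.02. In 3 members (Cxcl5, Cxcl9 and Cxcl13) each calcipotriol tumor lay above each EtOH tumor, an arrangement found in 6.32% of tested genes. Only Cxcr4 had each calcipotriol tumor below each EtOH tumor, as 6.16% of tested genes did, and in the other 6 members the groups overlapped.

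**Figure D1:**
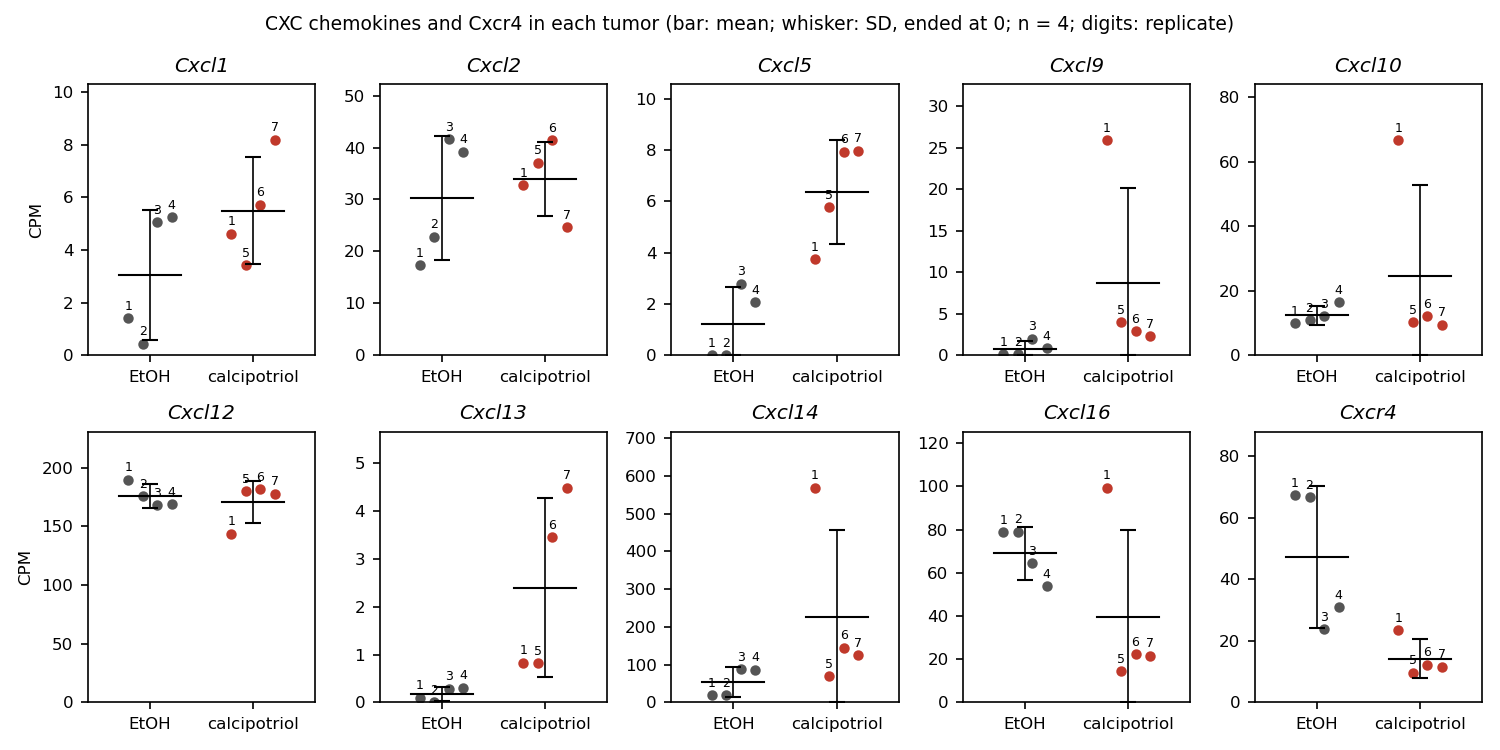
CPM of the 10 members in each tumor (points, numbered by replicate) with the group mean (bar) and SD (whisker, ended at 0), EtOH and calcipotriol side by side, on an axis of its own for each gene. Cxcr4 was at 23.8 to 67.3 CPM in EtOH tumors and 9.68 to 23.4 in calcipotriol tumors, while calcipotriol tumor 1 lay far above the other treated tumors for Cxcl9, Cxcl10, Cxcl14 and Cxcl16.

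Motif matches were compared among the promoters of the members. RefSeq promoters of GRCm38.p6 (the 250 bases before the start that RefSeq gives) were found for 8 of the 10 members, all except Cxcl5 and Cxcl16. They were searched on both strands for the NF-kB half-sites GGG and TTCC with 3 bases between them, which 4.65% of 32851 promoters held, for the interferon response half-sites GAAA and GAAA with 2 bases between them (2.98%), and for a vitamin D receptor direct repeat, GNTCA and GNTCA with 4 bases between them (0.548%). The first pattern matched in Cxcl1, Cxcl2 and Cxcl10, and the second in Cxcl10 and Cxcl14. The direct repeat matched in 0 of the 8, and Cxcl9, Cxcl12, Cxcl13 and Cxcr4 held none of the 3 patterns. A match describes letters only. The 4 promoters shown are those of 2 neighbouring pairs of ligand genes on chromosome 5, Cxcl1 with Cxcl2 and Cxcl9 with Cxcl10, printed 5′ to 3′ on the gene's strand with matches in capitals. They are chr5:90890995-90891244 (plus strand) for Cxcl1, chr5:90903649-90903898 (plus strand) for Cxcl2, chr5:92328080-92328329 (minus strand) for Cxcl9 and chr5:92348890-92349139 (minus strand) for Cxcl10.
Cxcl1: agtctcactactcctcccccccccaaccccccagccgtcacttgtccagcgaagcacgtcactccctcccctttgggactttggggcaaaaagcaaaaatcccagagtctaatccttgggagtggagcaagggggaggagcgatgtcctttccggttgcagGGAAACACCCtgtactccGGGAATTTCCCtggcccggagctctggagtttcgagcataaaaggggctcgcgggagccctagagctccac
Cxcl2: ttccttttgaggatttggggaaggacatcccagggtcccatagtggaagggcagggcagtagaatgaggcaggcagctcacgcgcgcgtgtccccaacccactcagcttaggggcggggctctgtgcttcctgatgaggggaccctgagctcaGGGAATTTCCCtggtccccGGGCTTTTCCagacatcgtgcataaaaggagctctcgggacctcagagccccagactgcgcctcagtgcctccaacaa
Cxcl9: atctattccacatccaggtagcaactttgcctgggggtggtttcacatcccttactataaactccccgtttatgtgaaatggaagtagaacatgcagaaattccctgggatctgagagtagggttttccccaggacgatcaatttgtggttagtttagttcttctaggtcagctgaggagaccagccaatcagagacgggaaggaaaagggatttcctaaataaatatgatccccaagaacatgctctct
Cxcl10: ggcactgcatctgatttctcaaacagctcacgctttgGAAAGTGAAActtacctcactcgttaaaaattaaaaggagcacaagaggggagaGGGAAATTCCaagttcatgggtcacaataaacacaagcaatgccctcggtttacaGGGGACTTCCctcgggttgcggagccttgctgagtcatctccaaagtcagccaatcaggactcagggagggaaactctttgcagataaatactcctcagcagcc
Positions are counted from the start that RefSeq gives, which for Cxcl1 and Cxcl2 lies within the gene as GENCODE M21 places it. In Cxcl1 the NF-kB pattern matched at -89 to -80 on the strand opposite the gene, at -71 to -62 on the gene's strand, and at -70 to -61 on the opposite strand, overlapping the match before it. In Cxcl2 it matched at -97 to -88, overlapped by an opposite-strand match at -96 to -87, and at -78 to -69. The run GGGAATTTCC was found, on either strand, in Cxcl1 and Cxcl2 and in 28 promoters, 0.0852% of all. The run GGAATTTCCC was found in Cxcl1, Cxcl2 and also Cxcl10, and in 32 promoters, 0.0974% of all. In Cxcl10 the NF-kB pattern matched at -159 to -150 and at -104 to -95, and the interferon pattern matched at -213 to -204.

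The CXCR2 ligands came first, to see whether neutrophil chemokines differed between the groups. Cxcl5 (ENSMUSG00000029371, chr5:90759360-90761624, plus strand) was at 0, 0, 2.79 and 2.07 CPM in EtOH tumors 1 to 4, and at 3.73, 5.76, 7.93 and 7.97 CPM in calcipotriol tumors 1, 5, 6 and 7. Each treated tumor was above each EtOH tumor, and the zeros were those of EtOH tumors 1 and 2. Its mean of 1.22 ± 1.44 CPM in EtOH tumors compared with 6.35 ± 2.03 CPM after calcipotriol (SD, n = 4 each). Groups without overlap give the smallest two-sided exact permutation p that 70 arrangements allow, 0.0286, which is unadjusted. The fitted log2 fold change of 2.36 (SE 1.08) did not pass in edgeR (adjusted p = 0.278). Without EtOH tumors 1 and 2 it was 1.38 (SE 0.42, edgeR adjusted p = 0.12). A fit without EtOH tumors 3 and 4 compares it with 2 tumors at 0 counts, and its fold is not given.

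Cxcl1 (ENSMUSG00000029380, chr5:90891241-90893115, plus strand) was at 1.41, 0.438, 5.06 and 5.25 CPM in the EtOH tumors and at 4.61, 3.43, 5.72 and 8.18 CPM in the calcipotriol tumors. EtOH tumors 1 and 2 were low, and tumors 3 and 4 lay within the treated range. The log2 fold change of 0.85 (SE 0.64) was not called in edgeR (adjusted p = 0.529). It was 0.09 without EtOH tumors 1 and 2 (adjusted p = 0.929) and 2.56 without EtOH tumors 3 and 4 (adjusted p = 0.0475). Cxcl2 (ENSMUSG00000058427, chr5:90903871-90905938, plus strand) starts 10756 bases beyond the end of Cxcl1. It was at 17.4, 22.8, 41.6 and 39.2 CPM with EtOH and 32.7, 37.1, 41.4 and 24.6 CPM with calcipotriol, so the groups overlapped widely. For Cxcl2 the log2 fold change was 0.17 (SE 0.28, edgeR adjusted p = 0.803), and -0.25 without EtOH tumors 1 and 2. In both genes the split within the EtOH group was larger than the difference between the group means.

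Of the other CXCR2 ligands, Cxcl3 had 17, 25, 108 and 109 counts in the EtOH tumors and 178, 100, 126 and 125 in the calcipotriol tumors, with a log2 fold change of 1.03 (SE 0.53, edgeR adjusted p = 0.335). It was 0.33 (adjusted p = 0.616) without EtOH tumors 1 and 2 and 2.49 (adjusted p = 0.015) without EtOH tumors 3 and 4. Ppbp, a platelet chemokine gene that lies 6894 bases from Cxcl5, had a log2 fold change of -0.98 (SE 0.73, adjusted p = 0.522). To show the composition of the pool, CPM per kb of the 6 CXCR2 ligand genes was summed in each tumor. The sum was 18.9 ± 8.23 CPM per kb (SD, n = 4) with EtOH and 25.1 ± 3.52 with calcipotriol. It was low in EtOH tumors 1 and 2 (10.1 and 13.9). EtOH tumors 3 and 4 (27.0 and 24.7) lay within the treated range of 22.6 to 30.2. Cxcl2 dominated the sum, with a mean of 78.6% ± 4.01 of the pool in EtOH tumors and 65.4% ± 9.49 in calcipotriol tumors (SD, n = 4 each). Cxcl5 took 0%, 0%, 5.55% and 4.51% in the EtOH tumors and 8.88%, 12.6%, 14.1% and 18.6% in the calcipotriol tumors, without overlap. These shares were not tested, and in EtOH tumors 1 and 2 they rest on 0 counts of Cxcl5.

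**Figure D2:**
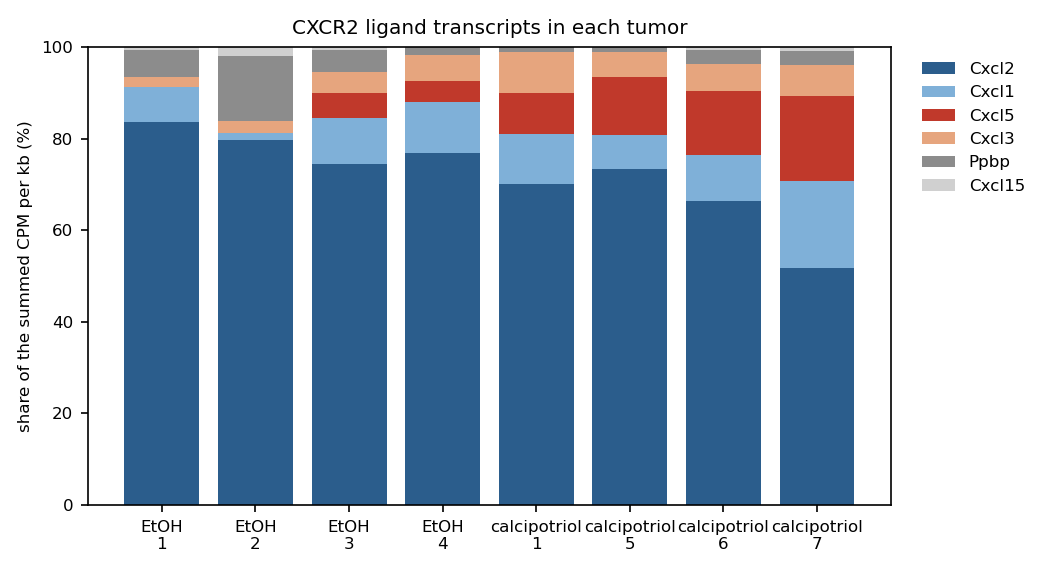
Percent of the summed CPM per kb of 6 CXCR2 ligand genes taken by each gene, 1 stacked bar for each tumor. Cxcl2 held the largest share in all 8 tumors, 74.4% to 83.7% with EtOH and 51.8% to 73.4% with calcipotriol, and Cxcl5 was seen at 4.51% or more in all tumors except EtOH 1 and 2.

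Cxcr2, the receptor gene of these ligands in neutrophils, had 75, 133, 12 and 9 counts with EtOH and 12, 71, 24 and 30 with calcipotriol (log2 fold change -0.84, SE 0.90, edgeR adjusted p = 0.674). Its direction turned with the EtOH pair used, at 1.79 without EtOH tumors 1 and 2 and -1.72 without EtOH tumors 3 and 4. The 10 neutrophil markers, of which S100a9 was the most abundant, summed to 99.7, 112, 37.3 and 35.1 CPM in the EtOH tumors and to 45.4, 162, 73.4 and 54.1 CPM in the calcipotriol tumors. Of the 8 tested, 0 were called by edgeR, and their median log2 fold change was 0.06. This median rested on the split of the EtOH group, since it was 1.48 without EtOH tumors 1 and 2 and -0.42 without EtOH tumors 3 and 4, where Csf3r was called lower. Single markers differed in direction. Csf3r, the G-CSF receptor gene and the only marker with an unadjusted p under 0.05, was at 12.3, 17.1, 7.29 and 6.66 CPM with EtOH and at 6.04, 5.48, 3.51 and 6.44 CPM with calcipotriol, each treated tumor below each EtOH tumor (log2 fold change -1.01, SE 0.34, edgeR adjusted p = 0.151). Ly6g, a defining marker too low to be tested in edgeR, had 7, 1, 0 and 0 counts with EtOH and 17, 17, 3 and 10 with calcipotriol (two-sided exact permutation p = 0.0571). EtOH tumors 1 and 2, with the lowest Cxcl1, Cxcl2 and Cxcl5, had higher neutrophil sums than EtOH tumors 3 and 4. Genes known to induce these chemokines (7 cytokine genes, Il1b the most abundant) summed to 29, 33.7, 44.5 and 52.9 CPM with EtOH and to 34.1, 67.1, 34.7 and 34.9 CPM with calcipotriol. Il17a was at 0 counts in all 8 tumors, and of the 6 tested genes 0 were called by edgeR. Csf3, the gene of the neutrophil growth factor G-CSF, was the only one of the 6 with an unadjusted p under 0.05. It had 22, 0, 13 and 5 counts with EtOH and 27, 779, 153 and 96 with calcipotriol (log2 fold change 4.71, SE 1.16, edgeR adjusted p = 0.0608), and it was called higher without calcipotriol tumor 1. EtOH tumor 1 and calcipotriol tumor 1 were both at 1.07 CPM, and in calcipotriol tumor 5 it made up 35.6 of the 67.1 CPM of the sum.

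The interferon-inducible ligands were dominated by 1 library. Cxcl9 (ENSMUSG00000029417, chr5:92321347-92328079, minus strand), which draws T cells through CXCR3, was at 0.146, 0.146, 1.98 and 0.882 CPM in the EtOH tumors and at 25.9, 3.97, 2.88 and 2.29 CPM in the calcipotriol tumors. Each treated tumor was above each EtOH tumor, and tumor 1 was far above the other treated tumors. A log2 fold change of 3.44 (SE 1.01) did not pass in edgeR (adjusted p = 0.103; two-sided exact permutation p = 0.0286). Without calcipotriol tumor 1 it was 1.93 (SE 0.86, adjusted p = 0.231), and without EtOH tumors 1 and 2 it was 2.61 (adjusted p = 0.228). With no filter on low counts the adjusted p was 0.0318, past the threshold, and with DESeq2 size factors, without erythroid genes and with limma-voom it was 0.102 to 0.267. Without EtOH tumors 3 and 4 it was 0.0478.

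Cxcl10 (ENSMUSG00000034855, chr5:92346638-92348889, minus strand) lies 18559 bases from Cxcl9 and shares its receptor. It was at 9.83, 10.8, 12.1 and 16.5 CPM with EtOH and 66.6, 10.3, 12.1 and 9.45 CPM with calcipotriol. The 3 remaining treated tumors fell within or just below the EtOH range, and only tumor 1 was high. The log2 fold change of 1.0 (SE 0.59, edgeR adjusted p = 0.4) became -0.21 (SE 0.23, adjusted p = 0.656) without calcipotriol tumor 1. The gene lies within Art3, on the opposite strand, whose mean count was 19.5, and strand use in the counting is not given in the sources used here. The ratio of Cxcl9 to Cxcl10 counts was 0.0149, 0.0135, 0.164 and 0.0535 in the EtOH tumors and 0.388, 0.387, 0.238 and 0.242 in the calcipotriol tumors. This ratio did not overlap between the groups, including the treated tumors in which Cxcl10 itself was at the EtOH level. It was not tested.

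Genes of the interferon response moved with the same library. The 9 listed interferon-inducible genes, led by Gbp2, summed to 146, 133, 205 and 212 CPM in the EtOH tumors and to 923, 245, 252 and 275 CPM in the calcipotriol tumors. All treated sums were above all EtOH sums, and tumor 1 stood far above the rest. Of the 9 listed genes 4 did not overlap between the groups, among them Ifng, which was not tested. Of 8 tested genes 0 were called by edgeR and 7 had an unadjusted p under 0.05, with a median log2 fold change of 1.18. Without calcipotriol tumor 1 the median was 0.40, 3 had an unadjusted p under 0.05 and Gbp2 was called higher. Gbp2, a guanylate-binding protein gene, had a log2 fold change of 1.88 (SE 0.49, adjusted p = 0.0704). Ifng, the cytokine that induces Cxcl9, was at 0 counts in all EtOH tumors and at 34, 3, 7 and 9 counts in calcipotriol tumors 1, 5, 6 and 7. T cell markers (9 listed, Trbc2 the most abundant) summed to 4.18, 3.65, 2.27 and 1.72 CPM with EtOH and 14.2, 4.8, 3.46 and 2.84 CPM with calcipotriol. Cd8a, the coreceptor gene of cytotoxic T cells, had 6, 3, 0 and 0 counts with EtOH and 73, 12, 8 and 0 with calcipotriol. Cd4, the coreceptor gene of helper T cells, had 0, 6, 6 and 1 counts with EtOH and 26, 12, 10 and 9 with calcipotriol, the only T cell marker without overlap between the groups, and was too low to be tested in edgeR (two-sided exact permutation p = 0.0286). Cd3e, a T cell receptor subunit gene, had 0, 10, 0 and 0 counts with EtOH and 29, 12, 4 and 13 with calcipotriol. Of the 5 T cell markers tested 0 were called by edgeR, and 0 had an unadjusted p under 0.05. Cxcr3, the receptor gene of Cxcl9 and Cxcl10, had a log2 fold change of -0.18 (SE 1.0, edgeR adjusted p = 0.946). The part of T cells in the values of Cxcl9 and Cxcl10 was not tested.

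Cxcl13 (ENSMUSG00000023078, chr5:95956951-95961068, plus strand), the B cell chemokine, was low in all tumors. It had 2, 0, 7 and 7 counts in the EtOH tumors and 21, 18, 72 and 106 counts in the calcipotriol tumors. As CPM these were 0.0973, 0, 0.284 and 0.309 against 0.834, 0.822, 3.46 and 4.49, so the groups did not overlap. Calcipotriol tumors 6 and 7 were higher than tumors 1 and 5. The fitted value of 3.74 (SE 0.98) on the log2 scale lay just outside the threshold in edgeR (adjusted p = 0.0743; two-sided exact permutation p = 0.0286). It passed with the DESeq2 test (adjusted p = 0.00156), with no filter (0.0454) and without calcipotriol tumor 1 (0.0413, log2 fold change 4.02), and it did not with limma-voom (0.197). Without EtOH tumors 1 and 2 it was 3.0 (edgeR adjusted p = 0.137), and its adjusted p ranged from 0.0413 to 0.213 over the fits that left out 1 tumor. No B cell marker passed the filter. The 5 listed, with Cr2 at 0 in all tumors and Cd79b the most abundant, summed to 1.46, 1.17, 1.13 and 2.69 CPM with EtOH and to 0.318, 0.457, 0.336 and 0.297 CPM with calcipotriol, in the opposite direction to Cxcl13. Cxcr5, its receptor gene, had 12 counts in calcipotriol tumor 5 and was not tested.

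Cxcl14 (ENSMUSG00000021508, chr13:56288643-56296551, minus strand) was at 19.2, 18.4, 88.8 and 86.9 CPM in the EtOH tumors and at 569, 69.2, 145 and 125 CPM in the calcipotriol tumors. Calcipotriol tumor 1 was several times higher than all others, and tumor 5 lay below EtOH tumors 3 and 4. Mean levels were 53.3 ± 39.9 CPM in EtOH tumors and 227 ± 230 CPM in calcipotriol tumors (SD, n = 4 each). The log2 fold change of 2.09 (SE 0.72) did not pass in edgeR (adjusted p = 0.156; two-sided exact permutation p = 0.0857). It was 1.09 (SE 0.55, adjusted p = 0.297) without calcipotriol tumor 1 and 1.37 (adjusted p = 0.344) without EtOH tumors 1 and 2, and 3.60 (adjusted p = 0.0465) without EtOH tumors 3 and 4. Fibroblast markers (9 listed, all tested, Col3a1 the most abundant) summed to 5400, 5180, 5360 and 4880 CPM with EtOH and 3740, 3630, 5690 and 6410 CPM with calcipotriol. Col3a1 made up the largest part of this sum in each tumor, and the listed genes differed in how they were split within the EtOH group. Some were lower in EtOH tumors 1 and 2, as Cxcl14 was. Col1a1 was at 303, 271, 1160 and 1040 CPM with EtOH and 760, 284, 789 and 1010 CPM with calcipotriol, and Pdpn at 10.6, 10.9, 48.1 and 44.6 CPM against 46.8, 43.3, 30.1 and 29.5 CPM. Others were higher there, as Dcn was at 456, 616, 319 and 292 CPM with EtOH, against 318, 991, 1260 and 1380 CPM with calcipotriol, and Pdgfra at 187, 202, 86.3 and 63.8 CPM against 158, 231, 183 and 217 CPM. Of the 9 genes 0 were called by edgeR with all tumors, and Col3a1 and Dcn had an unadjusted p under 0.05. Dcn was called higher without calcipotriol tumor 1, Pdgfra without EtOH tumors 1 and 2, and Lum and Pdpn without EtOH tumors 3 and 4. The part of fibroblasts in the values of Cxcl14 was not tested.

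Cxcl12 (ENSMUSG00000061353, chr6:117168535-117181367, plus strand) was the steadiest member. It was at 190, 176, 168 and 169 CPM in the EtOH tumors and 144, 180, 182 and 178 CPM in the calcipotriol tumors. The groups overlapped, with calcipotriol tumor 1 the lowest. The means of 176 ± 10.3 and 171 ± 18.1 CPM (SD, n = 4 each) gave a log2 fold change of -0.04 (SE 0.12, edgeR adjusted p = 0.896). Leaving out 1 tumor at a time moved it between -0.07 and 0.03. Ackr3, which takes up Cxcl12 without G protein signaling, had 637, 574, 1899 and 1422 counts with EtOH and 1426, 1345, 1449 and 1846 with calcipotriol (log2 fold change 0.42, SE 0.30, adjusted p = 0.5).

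Cxcr4 (ENSMUSG00000045382, chr1:128588199-128592293, minus strand) was at 67.3, 66.6, 23.8 and 30.9 CPM in the EtOH tumors and at 23.4, 9.68, 12.3 and 11.6 CPM in the calcipotriol tumors. Each treated tumor was below each EtOH tumor, but calcipotriol tumor 1 and EtOH tumor 3 nearly met. Its mean was 47.1 ± 23.1 CPM in EtOH tumors, 3.31 times the 14.2 ± 6.19 CPM of calcipotriol tumors (SD, n = 4 each). A log2 fold change of -1.73 (SE 0.39) was past the threshold in edgeR (p = 0.00106, adjusted p = 0.0439; two-sided exact permutation p = 0.0286). This call was close to the threshold. It was lost with limma-voom (-1.63, SE 0.41, adjusted p = 0.0623) and, in edgeR, without EtOH tumor 1 (-1.50, adjusted p = 0.0966), EtOH tumor 2 (-1.51, 0.111), or calcipotriol tumor 5 (-1.58, 0.124), 6 (-1.66, 0.136) or 7 (-1.63, 0.129). It was kept without EtOH tumor 3 (0.0349), EtOH tumor 4 (0.048) or calcipotriol tumor 1 (-2.07, adjusted p = 0.0114). Without EtOH tumors 1 and 2 the log2 fold change was -0.94 (SE 0.34, adjusted p = 0.166), and without EtOH tumors 3 and 4 it was -2.23 (adjusted p = 0.00744).

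Cxcr4 was also set against its ligand Cxcl12. The ratio of Cxcl12 to Cxcr4 in CPM per kb was 0.624, 0.586, 1.56 and 1.21 in the EtOH tumors and 1.36, 4.11, 3.27 and 3.4 in the calcipotriol tumors. The ratio overlapped through calcipotriol tumor 1 and EtOH tumor 3, and was above 3 in the other 3 treated tumors. It was not tested.

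Endothelial genes moved with Cxcr4. Of 11 endothelial markers, all tested, 7 fell (Pecam1, Kdr, Tie1, Vwf, Esam, Clec14a and Robo4), and 0 were called higher. Their summed CPM, with Cdh5 the most abundant, was 417, 445, 197 and 203 in the EtOH tumors and 143, 80, 106 and 113 in the calcipotriol tumors, with a median log2 fold change of -1.46. EtOH tumors 1 and 2 were higher than EtOH tumors 3 and 4 in this sum as in Cxcr4, and 9 of the 11 genes did not overlap between the groups. Without calcipotriol tumor 1 edgeR called 8 of the 11 lower, without EtOH tumors 3 and 4 it called 10, and without EtOH tumors 1 and 2 it called 2 (Kdr and Vwf). Erythroid genes were likewise highest in EtOH tumors 1 and 2, with sums of 5600, 5840, 3510 and 3460 CPM with EtOH and 820, 434, 609 and 532 CPM with calcipotriol (6 tested, 5 called lower, Hbb-bs the most abundant, median log2 fold change -2.87). Endothelial tip markers (4 listed and tested, Apln the most abundant) summed to 98.5, 100, 86 and 89.2 CPM with EtOH and 68.9, 31.4, 35.5 and 37.1 CPM with calcipotriol. Esm1 and Dll4 were called lower. Without EtOH tumors 1 and 2 edgeR called 0 of the 4 (3 at an unadjusted p under 0.05). It called 3 lower without EtOH tumors 3 and 4, and 3 without calcipotriol tumor 1. Cxcr4 as a percentage of the endothelial sum was 16.1, 15, 12.1 and 15.2 in the EtOH tumors and 16.4, 12.1, 11.6 and 10.2 in the calcipotriol tumors. The groups overlapped in this percentage, with means of 14.6% ± 1.76 and 12.6% ± 2.66 (SD, n = 4 each). The part of endothelial cells, of blood, and of the leukocytes that also carry Cxcr4, in its fall was not tested.

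**Figure D3:**
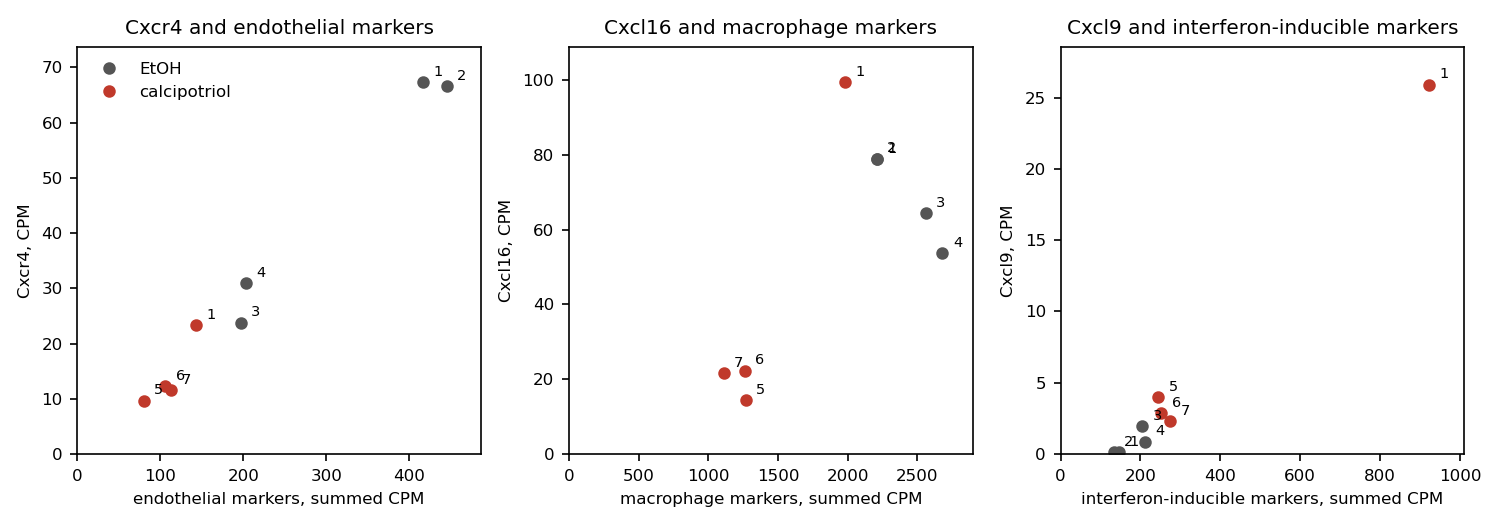
CPM of members in each tumor (vertical axis) against the summed CPM of a marker list (horizontal axis), with 1 numbered point for each tumor, for Cxcr4 with endothelial, Cxcl16 with macrophage and Cxcl9 with interferon-inducible genes. Cxcr4 and the endothelial sum were both highest in EtOH tumors 1 and 2, at 66.6 to 67.3 CPM of Cxcr4, and calcipotriol tumor 1 stood apart from the other treated tumors for Cxcl16 (99.4 CPM) and Cxcl9 (25.9 CPM).

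Cxcl16 (ENSMUSG00000018920, chr11:70453983-70459984, minus strand), the transmembrane ligand of CXCR6, was at 78.9, 79, 64.5 and 53.7 CPM in the EtOH tumors and at 99.4, 14.5, 22.3 and 21.6 CPM in the calcipotriol tumors. Calcipotriol tumor 1 was the highest of all 8 tumors and the other 3 treated tumors were the lowest, so the groups overlapped. Its log2 fold change was -0.81 (SE 0.52, edgeR adjusted p = 0.45). Without calcipotriol tumor 1 it was -1.83 (SE 0.21, adjusted p = 0.00144), and over the other fits that left out 1 tumor it was not called. The gene overlaps Zmynd15 on the opposite strand by 552 bases. The mean count of Zmynd15 was 124, and strand use in the counting is not given in the sources used here. Cxcl16 was the only member whose deposited values included parts of a count. Cxcr6, its receptor gene, had a log2 fold change of 0.07 (SE 0.23, adjusted p = 0.901), and Adam10 and Adam17, the proteases that shed it, of -0.04 (SE 0.13) and -0.19 (SE 0.15). Macrophage markers (11 listed and tested, C1qa the most abundant) summed to 2210, 2210, 2560 and 2680 CPM with EtOH and 1980, 1270, 1260 and 1110 CPM with calcipotriol. Of these Adgre1 and Csf1r were called lower and Cd163, a scavenger receptor gene, higher, with a median log2 fold change of -0.8. Without calcipotriol tumor 1 edgeR called 7 of the 11 lower, and without EtOH tumors 1 and 2 it called 0 (7 at an unadjusted p under 0.05). Cxcl16 was 3.58%, 3.57%, 2.52% and 2.0% of the macrophage sum in the EtOH tumors and 5.02%, 1.14%, 1.76% and 1.94% in the calcipotriol tumors. Calcipotriol tumor 1 was above the range of the other 7 in this percentage as well.

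**Figure D4:**
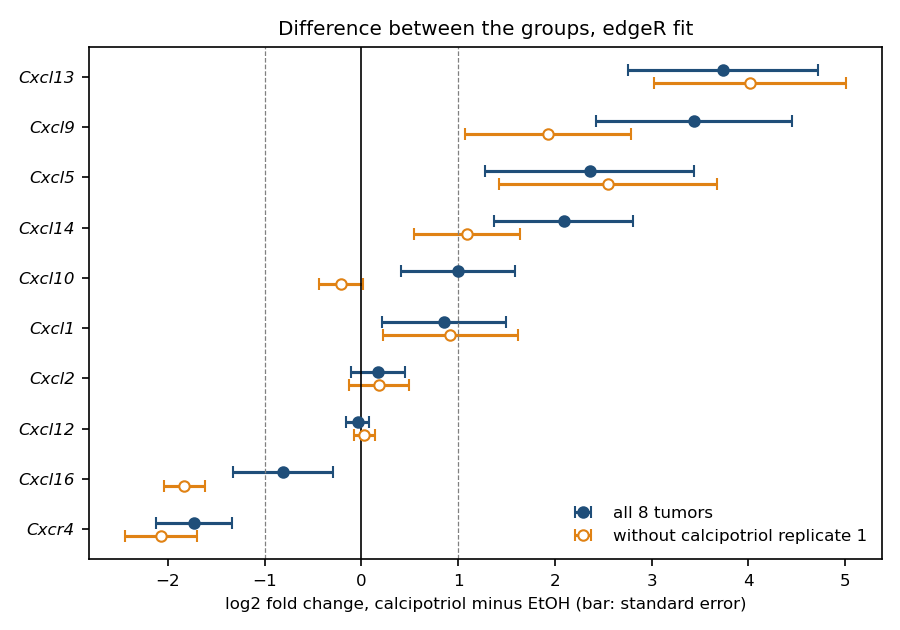
Log2 fold change (calcipotriol over EtOH) of each member from edgeR's fit with bars of 1 SE, for all 8 tumors (filled) and without calcipotriol tumor 1 (open), with dashed lines at the size a call asked for. Cxcr4 was at -1.73 with all tumors and -2.07 without that tumor, while Cxcl10 went from 1.0 to -0.21 and Cxcl16 from -0.81 to -1.83.

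Of 24 other genes of the CXC system (ligands, receptors, atypical receptors, proteases and signaling genes, listed with earlier results known), 19 were tested, 6 had positive and 13 negative log2 fold changes, and the median was -0.18. Rgs1, a regulator that shortens G protein signaling from chemokine receptors, was the only one called. It had 1911, 2931, 2461 and 1897 counts in the EtOH tumors and 1423, 1220, 954 and 1109 in the calcipotriol tumors (log2 fold change -1.03, SE 0.17, edgeR adjusted p = 0.0162). The call was lost without EtOH tumor 2 (-0.85, under the minimum size, adjusted p = 0.0286), without calcipotriol tumor 6 (-0.98, 0.0606) or 7 (-0.99, 0.0578), and without EtOH tumors 1 and 2 (-0.83, also under that size, 0.0392). Without EtOH tumors 3 and 4 edgeR called 6 of these genes, Ackr1, Ackr3, Cxcl3 and Pf4 higher and Rgs1 and Rgs2 lower. In that fit Ackr1 was compared with 2 tumors at 0 counts. Without EtOH tumors 1 and 2 edgeR called 0 (5 at an unadjusted p under 0.05). Gnai2, the inhibitory G protein subunit gene, was the most abundant, at 1110 ± 68.2 CPM with EtOH and 629 ± 168 CPM with calcipotriol (SD, n = 4 each). Its log2 fold change of -0.82 (SE 0.19, adjusted p = 0.0468) was below the size the call asked for. Arrb2, which ends receptor signaling, had -1.05 (SE 0.31, adjusted p = 0.102) and Rgs2 -0.88 (SE 0.29, adjusted p = 0.141). Pf4, the platelet and macrophage ligand gene, had 194, 211, 1123 and 1276 counts with EtOH and 462, 834, 683 and 737 with calcipotriol (log2 fold change -0.01, SE 0.53). Cxcl11, Cxcl15, Cxcl17, Cxcr1 and Cxcr5 did not pass the filter.

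Levels were ordered within each group in CPM per kb of the union of annotated exons. This scale compares genes only roughly, since the union (8176 bases for Cxcl12, the longest) can exceed the length of the transcripts present. In EtOH tumors Cxcl14 (29.2), Cxcr4 (26.1), Cxcl16 (22.9) and Cxcl12 (21.5) led, and neighbours in this order overlapped in range. Cxcl2 (14.6) and Cxcl10 (5.46) followed without overlap with their neighbours. Cxcl1 (1.62), Cxcl5 (0.653), Cxcl9 (0.262) and Cxcl13 (0.15) were lowest, with overlapping ranges. The order of these means pooled unlike EtOH pairs. In EtOH tumors 1 and 2 Cxcr4 led, at up to 37.2 CPM per kb, and Cxcl14 was as low as 10.1. In EtOH tumors 3 and 4 Cxcl14 led, at up to 48.6, and Cxcr4 was as low as 13.2, below Cxcl2. In calcipotriol tumors Cxcl14 (124) was first and separate from Cxcl12 (20.9). Cxcl2 (16.4), Cxcl16 (13.1), Cxcl10 (10.9) and Cxcr4 (7.87) overlapped in range, and Cxcr4 did not overlap the next, Cxcl5 (3.41). Cxcl1 (2.92), Cxcl9 (2.9) and Cxcl13 (2.09) came last. Calcipotriol tumor 1 carried part of this order. Without it the mean was 62 CPM per kb for Cxcl14, 6.44 for Cxcl16, 6.19 for Cxcr4, 4.71 for Cxcl10 and 1.01 for Cxcl9, so Cxcr4 stood above Cxcl10, and the ranges from Cxcl16 down overlapped between neighbours.

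Genes whose log2 CPM followed a member most closely over the 8 tumors were found by the smallest root mean square difference among 13140 genes. For Cxcr4 these were Rapgef5 (0.25), Rasip1 (0.26) and Slco2b1 (0.26), of which Rasip1 is an endothelial gene. For Cxcl16 they were Neurl3 (0.21), BC028528 (0.23) and Cybb (0.27), and for Cxcl10 Eva1b (0.26), Nrep (0.27) and Isg15 (0.29). Cxcl12, which varied little, was matched most closely by Fbxw2 (0.05), Arfgap2 (0.05) and Pdha1 (0.06), and Cxcl2 by Dctpp1 (0.14), Timm10b (0.14) and Kbtbd3 (0.17). Cxcl1 was followed by Pla1a (0.31), C1s1 (0.35) and Srpx (0.36). The lower or more variable members had looser matches, from C3 (0.42), Gngt1 (0.62) and Ccl8 (0.65) for Cxcl5 and Scarf2 (0.38), Aebp1 (0.50) and Zbp1 (0.54) for Cxcl14 to Prg4 (0.59), Clec10a (0.61) and Cyp1b1 (0.70) for Cxcl13. For Cxcl9 the nearest were Bhlhb9 (0.75), Gbp4 (0.77) and Gm4841 (0.78).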

How the data were processed

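Whole tumors were profiled by RNA-Seq, and the authors deposited estimated counts (expected counts per gene, some not whole) for 8 tumors, with 0 columns of other samples. The submitters' processing notes name STAR 2.5.3, RSEM 1.3.1, DESeq2 1.24.0 and GRCm38, with no role or order. Identifiers were matched to GENCODE M21, and 52133 of 55414 had a symbol. The tests were planned for whole or rounded counts, so values were rounded. Testing used edgeR 4.0.16 under R 4.3.3 (filterByExpr, TMM, glmQLFit, glmQLFTest), Benjamini-Hochberg adjusted over 14458 genes. CPM used TMM library sizes, log2 CPM a prior count of 2, and per kb values the union of annotated exons. Bounds of 3 counts cover counting error only, since PCR reads are not independent molecules. Alternatives were limma-voom (limma 3.58.1), DESeq2 1.42.0, its size factors, no filter, a minimum of 10 counts, no erythroid genes, and each tumor left out. EtOH pairs, and for marker lists and levels calcipotriol tumor 1, were left out after the data were seen. Named genes were the members, the called, most abundant and zero genes of the lists, the 3 closest genes and CXC neighbours. Further list genes (Cxcl3, Ppbp, Cxcr2, Cxcr3, Cxcr6, Ackr3, Adam10, Adam17, Arrb2, Rgs2, Pf4, Cd3e, Cd4, Cd8a, Ly6g, Csf3r, Csf3, Col1a1, Lum, Pdpn, Pdgfra and Dcn) were chosen after their values were seen. The members and lists were chosen with earlier results of these data known. The exact permutation test was planned for members removed by the filter. Its unadjusted p was also printed for Cxcl5, Cxcl9, Cxcl13, Cxcl14, Cxcr4, Ly6g and Cd4. In the other members the exact permutation p ran from 0.143 (Cxcl16) to 0.8 (Cxcl10 and Cxcl12). P-values measure the spread between these tumors. Scripts were tested on simulated data.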

Additional observations from a re-analysis of the deposited data

Results flagged for a closer look

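Among 52 groups of 4 tumors examined for a value far from the rest, 4 stood out, where chance gives about 2.6. Cxcl10 in calcipotriol tumor 1 was 66.6 CPM, against 9.45 to 12.1 in the other treated tumors. Cxcl12 in the same tumor was 144 CPM, below 178 to 182. The summed interferon-inducible genes in that tumor were 923 CPM, against 245 to 275. In calcipotriol tumor 5 the summed inducers of neutrophil chemokines were 67.1 CPM, against 34.1 to 34.9.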

How the results depend on the processing

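With all tumors edgeR called 292 genes. The count was 458 with no filter, 644 with the DESeq2 test, 290 with DESeq2 size factors, 110 to 642 with 1 tumor left out, 177 without EtOH tumors 1 and 2 and 605 without EtOH tumors 3 and 4. Of the 10 members 3 were called with no filter (Cxcl9, Cxcl13 and Cxcr4), 2 with DESeq2 (Cxcl13 and Cxcr4), which gave no adjusted p for Cxcl9, Cxcl10 and Cxcl16, 5 without EtOH tumors 3 and 4 (Cxcl1, Cxcl5 against 2 tumors at 0 counts, Cxcl9, Cxcl14 and Cxcr4), and 0 with limma-voom (5 at an unadjusted p under 0.05) or, in edgeR, without EtOH tumors 1 and 2 (4 at that p). Leaving out 1 tumor gave 0 to 3, with 3 (Cxcl13, Cxcl16 and Cxcr4) without calcipotriol tumor 1 and, in edgeR, 0 without EtOH tumor 1 or 2 or calcipotriol tumor 5, 6 or 7 (4 at that p each time). Of the other CXC genes the DESeq2 test and no filter each called 2 (Arrb2 and Rgs1). Without EtOH tumors 3 and 4, 6 were called (Ackr1 against 2 tumors at 0 counts), and edgeR called 0 without EtOH tumors 1 and 2 (5 at that p). Leaving out 1 tumor gave 0 to 3. The 3 were without calcipotriol tumor 1, and the 0, in edgeR, without EtOH tumor 2 or calcipotriol tumor 6 or 7 (5 at that p). Direction turned for Cxcl2 (-0.02 to 0.36 with 1 tumor left out, -0.25 without EtOH tumors 1 and 2), Cxcl10 (-0.21 to 1.27) and Cxcl12 (-0.07 to 0.03, and 0.02 without EtOH tumors 1 and 2), whose log2 fold changes were not called. The cause was not tested. Of 153 member fold changes recomputed with an adjusted p, 131 kept direction and side of the threshold. No paired analysis was run because the labels give no pairs of tumors. Counts of 3 or fewer in EtOH tumors 1 and 2 limit Cxcl5, Cxcl9 and Cxcl13.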

Other observations

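Markers of other tissues in the same libraries gave these values, with 0 called by edgeR unless stated. Epithelial markers (7 tested, Krt8 the most abundant, Krt14 called higher) summed to 1250, 1320, 1020 and 1080 CPM with EtOH and 893, 603, 726 and 650 CPM with calcipotriol. The Krt14 call was kept without calcipotriol tumor 1, where Krt18 was also called lower, and lost without either EtOH pair. Without EtOH tumors 1 and 2 edgeR called 0 of the 7 (2 at an unadjusted p under 0.05). Without EtOH tumors 3 and 4 it called Krt18 lower and Krt19, at 0 counts in EtOH tumors 1 and 2, higher. Muscle markers (5 tested, Acta1 the most abundant, 1 at an unadjusted p under 0.05) summed to 1.12, 0.925, 35.4 and 35.5 CPM with EtOH and 1.07, 0.868, 5.77 and 4.79 CPM with calcipotriol, so EtOH tumors 1 and 2 differed here from EtOH tumors 3 and 4 as well. Adipocyte markers (2 of 4 tested, Cidec the most abundant, 0 at an unadjusted p under 0.05) summed to 0, 0, 4.9 and 3.4 CPM with EtOH and 0.119, 4.61, 3.32 and 1.36 CPM with calcipotriol.

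Skin markers (2 of 5 tested, Lor the most abundant, Flg at 0 in all tumors and Krt1 and Ivl at 0 with EtOH, 1 at an unadjusted p under 0.05) summed to 13.6, 11.8, 9.8 and 11.7 CPM with EtOH and 3.97, 5.48, 15.1 and 5.68 CPM with calcipotriol. Dendritic cell markers (4 of 6 tested, Itgax the most abundant, 1 at an unadjusted p under 0.05) summed to 12.9, 18.4, 8.38 and 14.2 CPM with EtOH and 23.9, 6.12, 8.51 and 9.2 CPM with calcipotriol. Without calcipotriol tumor 1 edgeR called Itgax lower, and without either EtOH pair it called none of them. The vitamin D targets (Vdr, the most abundant, tested, and Cyp24a1) summed to 68.5, 50, 29.2 and 30.5 CPM with EtOH and 56.9, 87.5, 79.4 and 82.3 CPM with calcipotriol, and 1 of 1 tested had an unadjusted p under 0.05. Without calcipotriol tumor 1 edgeR called Cyp24a1 higher, against EtOH tumors all at 0 counts. It called Vdr higher without EtOH tumors 1 and 2, and neither gene without EtOH tumors 3 and 4.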
